A study of Mus musculus with 7 samples.

Results

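The genes described here encode the subunits that distinguish the interferon-inducible immunoproteasome from the constitutive proteasome. The members were the 9 symbols Psmb8, Psmb9, Psmb10, Psme1, Psme2, Psme3, Psmb5, Psmb6 and Psmb7, taken wherever the name column of the expression table held one of them. They matched 10 of the 38026 genes in the table, because Psme2 is listed under 2 identifiers. Bulk RNA-seq had been performed on 7 subcutaneous tumors taken from untreated C57BL/6 mice 2 weeks after inoculation of pancreatic ductal adenocarcinoma (PDA) cells. All tumors grew from the mouse line 1242, which came from a KPC mouse tumor whose alleles include LSL-Trp53 R172H and Pdx1-Cre, where the Pdx1 promoter drives Cre recombinase in the pancreas and related epithelium. The cells carried SpCas9 and puromycin resistance from the lentiCRISPR-v2 vector. The control tumors had a scrambled guide RNA (sgScramble, 4 libraries, numbered 1 to 4), and the edited tumors had a guide RNA against Krt19, an epithelial keratin gene (sgKrt19, 3 libraries, numbered 5, 6 and 8). Which of the 3 Krt19 guides was used, and whether the sequenced tumors grew from a polyclonal line or a single clone, is not given in the sources used here. The mice were bought at 6 weeks of age and kept for 2 weeks before use. The labels do not name separate cultures, so p-values measure the spread between these tumors.

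The 20S proteasome is a barrel of stacked alpha and beta rings, and only 3 of the beta subunits cut peptides. In most cells these are beta 5 (Psmb5, chymotrypsin-like), beta 1 (Psmb6, caspase-like) and beta 2 (Psmb7, trypsin-like). Interferon-gamma and hematopoietic identity bring in beta 5i (Psmb8), beta 1i (Psmb9) and beta 2i (Psmb10), which take the same positions in newly assembled particles and change the C termini of the peptides that reach MHC class I. Interferon also raises the cap PA28 alpha-beta (Psme1 and Psme2), whereas the related cap PA28 gamma (Psme3) is nuclear and not inducible in this way. Psmb8 and Psmb9 lie in the MHC class II region beside Tap1 and Tap2, which encode the transporter that carries the peptides into the endoplasmic reticulum.

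Values are normalized read counts, that is, read counts of each gene after division by a factor that scales the libraries to each other. Depth was 40781199 to 44972100 reads per library, and 3 reads, used as a limit of detection, correspond to 2.74 to 3.47 on this scale. All members lay far above that limit. Fold changes are on the scale of log2(value + 1) from limma, with Benjamini-Hochberg adjustment over the 21322 genes that reached a value of 10 in at least 3 libraries, and all 10 member entries passed that filter. The targeted gene matched the labels. Krt19 was at 17841 to 27618 in sgScramble and at 1606 to 2470 in sgKrt19, a log2 fold change of −3.52 (adjusted p = 1.7e-05). In bulk tumors, fewer cells of a type and less RNA per cell cannot be told apart.

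All 5 inducible subunits were higher in sgKrt19 tumors, and 2 of the 4 constitutive ones were too. Among all genes tested, 34.0% passed in either direction, 17.9% as higher and 16.0% as lower in sgKrt19. For the 5 inducible genes and for Psmb5 and Psmb7, every sgKrt19 library lay above every sgScramble library, which held for 21.7% of all genes tested. Inducible fold changes ran from 0.75 to 1.95 on the log2 scale with a median of 1.24, constitutive ones from −0.10 to 0.67 with a median of 0.33, and the median of all genes tested was 0.0072.

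**Figure D1:**
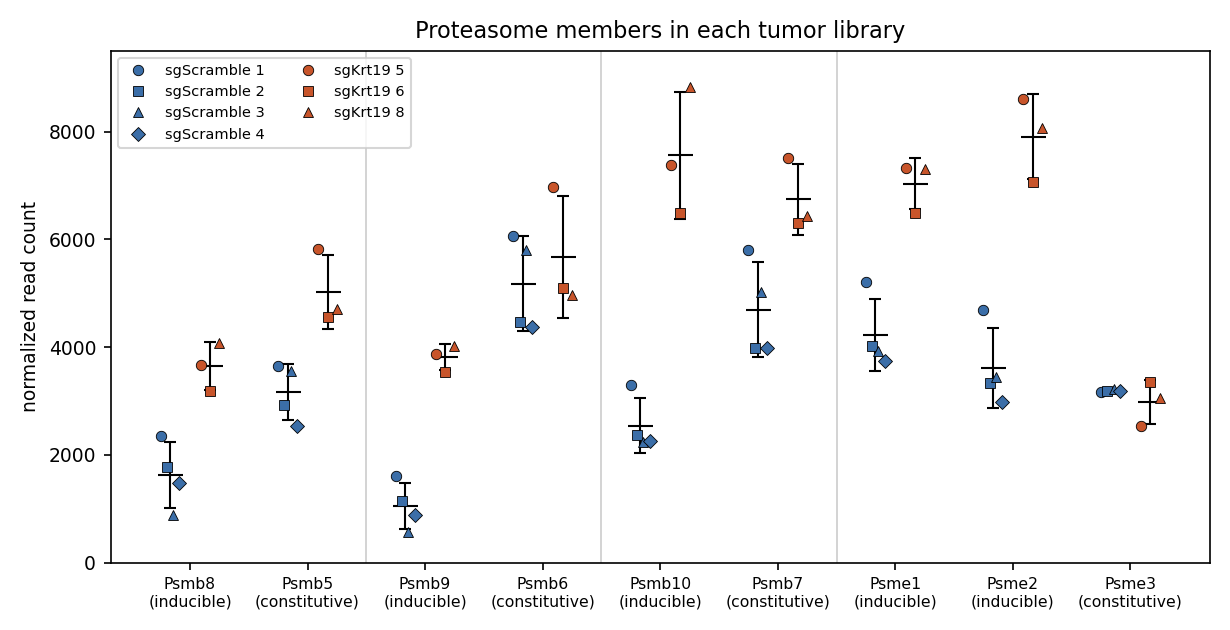
Normalized read count (y axis) of the 9 members (x axis) in each of the 7 tumor libraries, with sgScramble in blue, sgKrt19 in orange, and horizontal bars with whiskers for the mean ± SD. Constitutive counterparts stand beside the inducible beta subunits. Psmb9 is at 580 to 1607 in sgScramble and 3546 to 4023 in sgKrt19, while the groups overlap for Psmb6 and Psme3.

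Psmb9, the beta 1i subunit, had the largest change of the members. It was at 1607, 1142, 580 and 892 in sgScramble 1 to 4 and at 3876, 3546 and 4023 in sgKrt19 5, 6 and 8. The lowest edited tumor was thus more than double the highest control, and among the controls sgScramble 3 was lowest. The mean was 1055 ± 434 (SD, n = 4) in the controls and 3815 ± 245 (n = 3) in the edited tumors, which limma put at 1.95 (SE 0.273) on the log2 scale with an adjusted p of 0.000674. The gene lies on chromosome 17 at 34181987 to 34187764 (mm10, minus strand) with 6 exons in its principal transcript. Its annotated exons share 212 bases, 5.79% of the total, with exons of Tap1 on the opposite strand. Tap1 had a mean value of 5276 over the 7 libraries. Reads in the shared bases cannot be assigned without knowing whether strand was used, and their share of the Psmb9 reads was not measured.

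Psmb6, the beta 1 subunit that Psmb9 replaces, is the counterpart with the smallest change of the 3 beta subunits. It was at 6062, 4461, 5799 and 4377 in sgScramble and at 6972, 5092 and 4959 in sgKrt19. The groups overlapped, with 2 of the 3 edited tumors inside the range of the controls. The log2 fold change was 0.13 (95% confidence interval −0.24 to 0.50, adjusted p = 0.559), and it was −0.03 without sgKrt19 5. The gene lies on chromosome 11 at 70525367 to 70527858 (plus strand, 6 exons).

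Psmb10, the beta 2i subunit, was the inducible gene with the smallest standard error among the 3 beta genes. It was at 3302, 2373, 2243 and 2253 in sgScramble and at 7380, 6489 and 8818 in sgKrt19. Here sgScramble 1 stood above the other 3 controls, which lay close together. The mean was 2543 ± 510 in the controls and 7563 ± 1175 in the edited tumors, which limma put at 1.58 (SE 0.161) on the log2 scale with an adjusted p of 0.00013. Psmb10 lies apart from the MHC, on chromosome 8 at 105935735 to 105938444 (minus strand, 8 exons).

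Psmb7, the beta 2 counterpart, rose less. It was at 5796, 3980, 5020 and 3990 in sgScramble and at 7504, 6302 and 6433 in sgKrt19. The nearest libraries, sgScramble 1 and sgKrt19 6, were 5796 and 6302. The log2 fold change was 0.54 (SE 0.15, adjusted p = 0.0209). This call was not stable: leaving out sgKrt19 5, sgScramble 2 or sgScramble 4 gave log2 fold changes of 0.46, 0.46 and 0.46 with adjusted p of 0.0765, 0.064 and 0.0531 in limma. The gene lies on chromosome 2 at 38588036 to 38644087 (minus strand, 8 exons), and 405 of its exon bases (11.8%) overlap Nek6 on the opposite strand. Nek6 had a mean value of 7599, and the same limit on assigning reads holds here.

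Psmb8, the beta 5i subunit, rose as well. It was at 2355, 1780, 890 and 1485 in sgScramble and at 3667, 3189 and 4084 in sgKrt19. The control values spanned 890 to 2355, with sgScramble 3 again lowest. The mean was 1627 ± 610 in the controls and 3647 ± 448 in the edited tumors, which limma put at 1.24 (SE 0.267) on the log2 scale with an adjusted p of 0.00653. Psmb8 lies on chromosome 17 at 34197721 to 34201454 (plus strand, 6 exons), and 498 of its exon bases (14.7%) overlap the gene model Gm20496 on the opposite strand, where the same limit holds.

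Psmb5, the beta 5 counterpart, was also higher in sgKrt19. It was at 3647, 2935, 3553 and 2537 in sgScramble and at 5817, 4563 and 4700 in sgKrt19. All edited tumors lay above all controls. The log2 fold change was 0.67 (SE 0.15, adjusted p = 0.0078). The gene lies on chromosome 14 at 54614119 to 54618022 (minus strand, 3 exons), and 109 of its exon bases (12.1%) also belong to the microRNA gene Mir686 on the same strand.

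The PA28 alpha and beta genes are neighbours on chromosome 14, Psme1 at 55578123 to 55581529 (plus strand) and Psme2 at 55587441 to 55591113 (minus strand), each with 11 exons. Psme1 was at 5203, 4021, 3932 and 3751 in sgScramble and at 7318, 6487 and 7304 in sgKrt19. Its mean was 4227 ± 661 in the controls and 7036 ± 476 in the edited tumors, which limma put at 0.75 (SE 0.131) on the log2 scale with an adjusted p of 0.00223. Psme2 was at 4684, 3327, 3455 and 2992 in sgScramble and at 8608, 7056 and 8061 in sgKrt19. Although the products assemble into 1 ring, the estimated changes of their transcripts differed in size. The mean of Psme2 was 3615 ± 739 in the controls and 7908 ± 787 in the edited tumors, which limma put at 1.15 (SE 0.154) on the log2 scale with an adjusted p of 0.000553.

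The second entry named Psme2 (ENSMUSG00000116285.1) is not in the annotation used here. Its values of 391 to 627 in sgScramble and 1034 to 1305 in sgKrt19 differed by only −2.92% to 0% from those of Psme2b, an intronless copy of Psme2 on chromosome 11 at 48945354 to 48946190. The log2 fold changes of the 2 entries were 1.31 and 1.28 (adjusted p = 0.000405 and 0.000421). Whether these reads come from the copies or from Psme2 itself was not tested, and they are uncertain for that reason. The entry with the identifier ENSMUSG00000079197.10 is used as Psme2 throughout.

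Psme3, the gene of PA28 gamma, did not pass the test. It was at 3160, 3179, 3219 and 3188 in sgScramble and at 2532, 3352 and 3065 in sgKrt19. The 4 controls were nearly equal, whereas the edited tumors lay on both sides of them. The log2 fold change was −0.10 (95% confidence interval −0.36 to 0.15, adjusted p = 0.492), and 0.0086 without sgKrt19 5. Psme3 lies on chromosome 11 at 101316213 to 101323537 (plus strand, 11 exons).

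Ratios of 2 genes within a library do not move with the scaling of that library, so they address whether the inducible subunits changed relative to their counterparts. For Psmb9 against Psmb6 the log2 ratio was −1.91, −1.96, −3.32 and −2.29 in sgScramble 1 to 4 and −0.85, −0.52 and −0.30 in sgKrt19 5, 6 and 8. The groups were far apart, with a difference of 1.82. For Psmb10 against Psmb7 the ratio was −0.81, −0.75, −1.16 and −0.82 in sgScramble and −0.02, 0.04 and 0.45 in sgKrt19, a difference of 1.04. For Psmb8 against Psmb5 it was −0.63, −0.72, −1.995 and −0.77 in sgScramble and −0.67, −0.52 and −0.20 in sgKrt19. This pair was the exception, since sgKrt19 5 lay within the range of the controls. Its difference of 0.57 fell to 0.25 without sgScramble 3.

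Both PA28 alpha-beta genes rose against PA28 gamma. The log2 ratio of Psme1 to Psme3 was 0.72, 0.34, 0.29 and 0.23 in sgScramble and 1.53, 0.95 and 1.25 in sgKrt19. That of Psme2 to Psme3 was 0.57, 0.07, 0.10 and −0.09 in sgScramble and 1.77, 1.07 and 1.39 in sgKrt19. Neither pair overlapped between groups, and the differences were 0.85 and 1.25.

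The 8 ratios were compared by a two-sided exact permutation test over the libraries. With 4 against 3 libraries, and p taken as double the smaller tail, 0.0571 is the smallest p the design can give, so p cannot pass 0.05. Of the 5 inducible-to-constitutive ratios, 4 reached it (adjusted p = 0.0762), and Psmb8 to Psmb5 gave 0.114 in the exact permutation test, or 0.131 after adjustment. When p counted the arrangements with a difference at least as large in size, the 4 ratios had an adjusted p of 0.0381 and Psmb8 to Psmb5 one of 0.2. Before adjustment the 4 ratios had 0.0286 by this count, the smallest p it can give here. That value says only that no other arrangement of the libraries gave so large a difference.

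**Figure D2:**
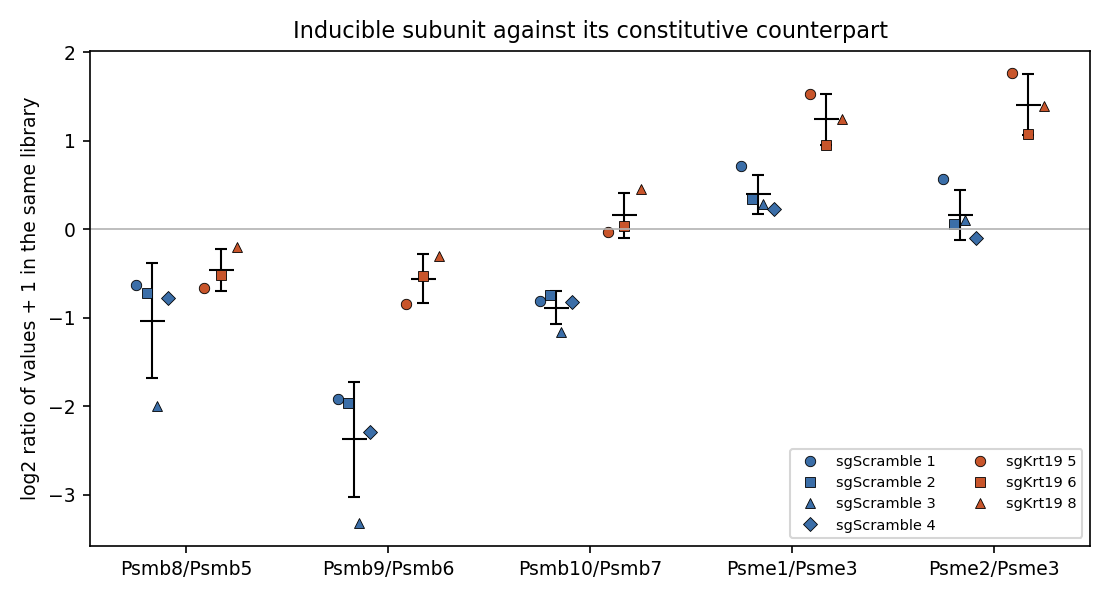
Log2 ratio (y axis) of each inducible gene to its constitutive counterpart (x axis) within each library, with sgScramble in blue, sgKrt19 in orange, and bars with whiskers for mean ± SD. The groups are apart for every pair but Psmb8/Psmb5, where sgKrt19 5 at −0.67 lies among the controls and sgScramble 3 at −1.995 lies below them.

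The inducible genes did not all rise by the same amount. The log2 ratio of Psmb9 to Psmb8 was −0.55, −0.64, −0.62 and −0.73 in sgScramble and 0.08, 0.15 and −0.02 in sgKrt19. It was tight within each group, and the difference was 0.71 (exact permutation p = 0.0571, adjusted p = 0.0762). Psme2 against Psme1 went from −0.15, −0.27, −0.19 and −0.33 to 0.23, 0.12 and 0.14, a difference of 0.40 at the same p. Psmb10 against Psmb8 overlapped between groups, at 0.42 to 1.33 in sgScramble and 1.01 to 1.11 in sgKrt19 (difference 0.34, exact permutation p = 0.229, adjusted p = 0.229). In sgScramble 3, Psmb8 and Psmb9 were low together, and their ratio of −0.62 was inside the range of the other controls.

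Levels of different genes are compared per kilobase of the principal transcript. Per kilobase, sgScramble tumors held the least of Psmb9 (781 ± 321 per kb) and Psmb8 (1000 ± 375), followed by Psme3 (1196 ± 9.33) and Psmb10 (1940 ± 389). The other 5 lay higher, with Psmb5 at 3524 ± 585, Psme2 at 3757 ± 769, Psme1 at 3801 ± 594, Psmb7 at 4049 ± 759 and Psmb6 at 6484 ± 1103. From Psmb9 to Psmb8 to Psme3, and from Psmb5 through Psmb7, each step was smaller than the larger SD of the 2 genes, while the steps to Psmb10, from Psmb10 to Psmb5 and to Psmb6 were larger. In sgKrt19 tumors the order was Psme3 at 1120 ± 156, Psmb8 at 2240 ± 275, Psmb9 at 2822 ± 181, Psmb5 at 5591 ± 765, Psmb10 at 5769 ± 896, Psmb7 at 5816 ± 568, Psme1 at 6328 ± 428, Psmb6 at 7111 ± 1411 and Psme2 at 8221 ± 818. The steps from Psme3 to Psmb8, to Psmb9 and to Psmb5 exceeded both SDs, and from Psmb5 upward each step was smaller than the larger SD.

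Expressed as the inducible share of each catalytic pair per kilobase, Psmb9 made up 10.7% ± 3.66 of Psmb9 plus Psmb6 in sgScramble and 28.7% ± 3.85 in sgKrt19. Psmb10 made up 32.4% ± 2.78 of its pair and then 49.7% ± 4.49. Psmb8 made up 22.0% ± 6.60 and then 28.7% ± 3.39, with overlapping groups. These shares depend on the transcript length assumed. With the merged exons of each gene as its length, the Psmb10 share was 52.1% in sgScramble and 69.0% in sgKrt19, and the Psmb8 share 12.1% and 16.3%. They describe transcripts, not assembled particles.

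The constitutive genes were set beside the rest of the particle. The 11 shared 20S subunits, which both kinds of proteasome contain, had a geometric mean value of 6093, 4382, 5195 and 4097 in sgScramble 1 to 4 and of 8039, 6449 and 6439 in sgKrt19 5, 6 and 8. Of these 11, 8 passed the test as higher and 0 as lower, against 17.9% and 16.0% of all genes tested. Their median log2 fold change was 0.51. Relative to that core, a ratio added after the values had been seen, Psmb7 differed by 0.03 between groups and Psmb5 by 0.17, whereas Psmb6 was lower in every sgKrt19 library (difference −0.38) and Psme3 differed by −0.61 with overlapping groups. The log2 ratios of the inducible genes to the core rose between groups by 1.44 for Psmb9, 1.07 for Psmb10, 0.73 for Psmb8, 0.64 for Psme2 and 0.24 for Psme1. Psmb9 and Psmb8 still lay below the core in sgKrt19, with mean log2 ratios of −0.86 and −0.93. Of the 5 inducible genes only Psme1 overlapped between groups in this ratio. In the exact permutation test over the 9 ratios, those of Psmb5, Psmb6, Psmb8, Psmb9, Psmb10 and Psme2 had an adjusted p of 0.0857. Psme3 had 0.147, Psme1 0.193 and Psmb7 0.457. When p counted the arrangements with a difference at least as large in size, Psmb6, Psmb9, Psmb10 and Psme2 had an adjusted p of 0.0643. Psmb5 and Psmb8 had 0.0857, Psme3 0.110, Psme1 0.129 and Psmb7 0.457, so no core ratio passed the threshold by either p.

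**Figure D3:**
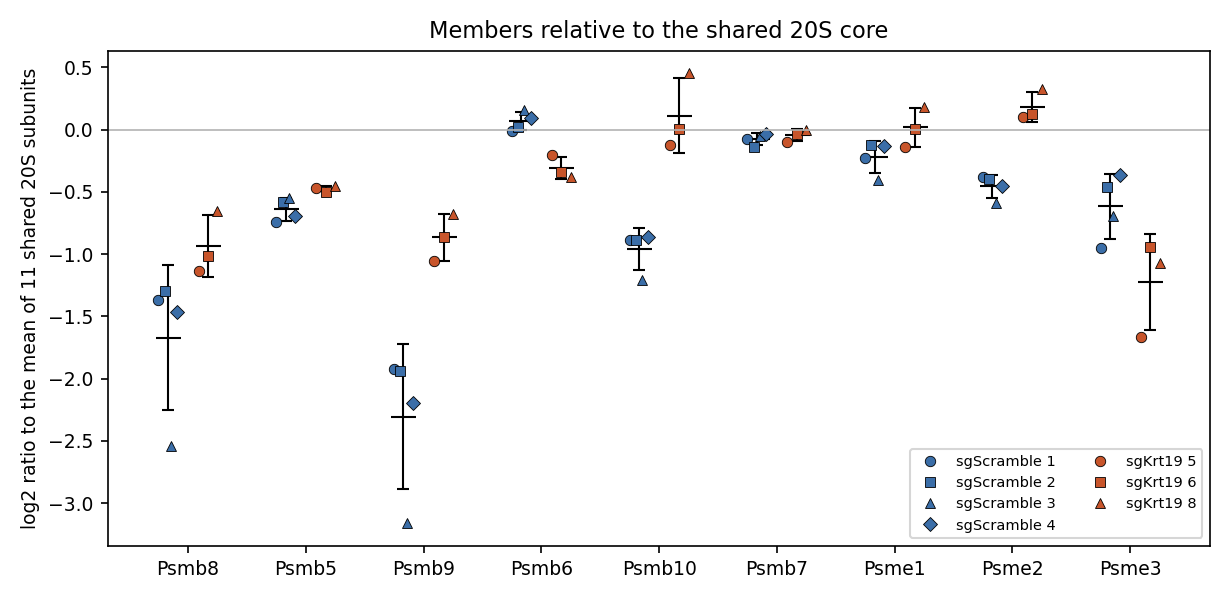
Log2 ratio (y axis) of each member (x axis) to the mean of the 11 shared 20S subunits in the same library, with sgScramble in blue, sgKrt19 in orange, and bars with whiskers for mean ± SD. Psmb7 stays at −0.14 to 0.00 in all 7 libraries, Psmb6 falls from −0.01 to 0.16 in sgScramble to −0.38 to −0.21 in sgKrt19, and Psmb9 rises the most.

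The full proteasome list held 53 genes of the table, and 51 passed the filter. The thymus-specific Psmb11 and the testis-specific Psma8 stayed out, with values of at most 2.96 and 6.94. Of the 51 tested, 26 were higher in sgKrt19 and 0 lower, 45 had a positive log2 fold change, and the median was 0.42. Among all genes tested, 17.9% were higher and 16.0% lower. Without the members, 19 of 42 were higher with a median of 0.39. By part of the particle, 6 of 7 alpha subunits, 7 of 10 beta subunits, 4 of 6 ATPases and 5 of 15 other subunits of the 19S cap, 2 of 5 activators and inhibitors, and 2 of 8 assembly chaperones were higher. The 3 largest changes outside the members were in Psmg4, an assembly chaperone (0.90, adjusted p = 0.00904), Uchl5, a deubiquitinase of the cap (0.68, adjusted p = 0.00296), and Psma7, an alpha subunit (0.68, adjusted p = 0.0113). Psmg4 exceeded Psme1 and lay below the other 4 inducible genes, and Uchl5 and Psma7 lay below all 5. Psme4, the PA200 activator, was below every control in all sgKrt19 libraries (log2 fold change −0.19, adjusted p = 0.138).

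**Figure D4:**
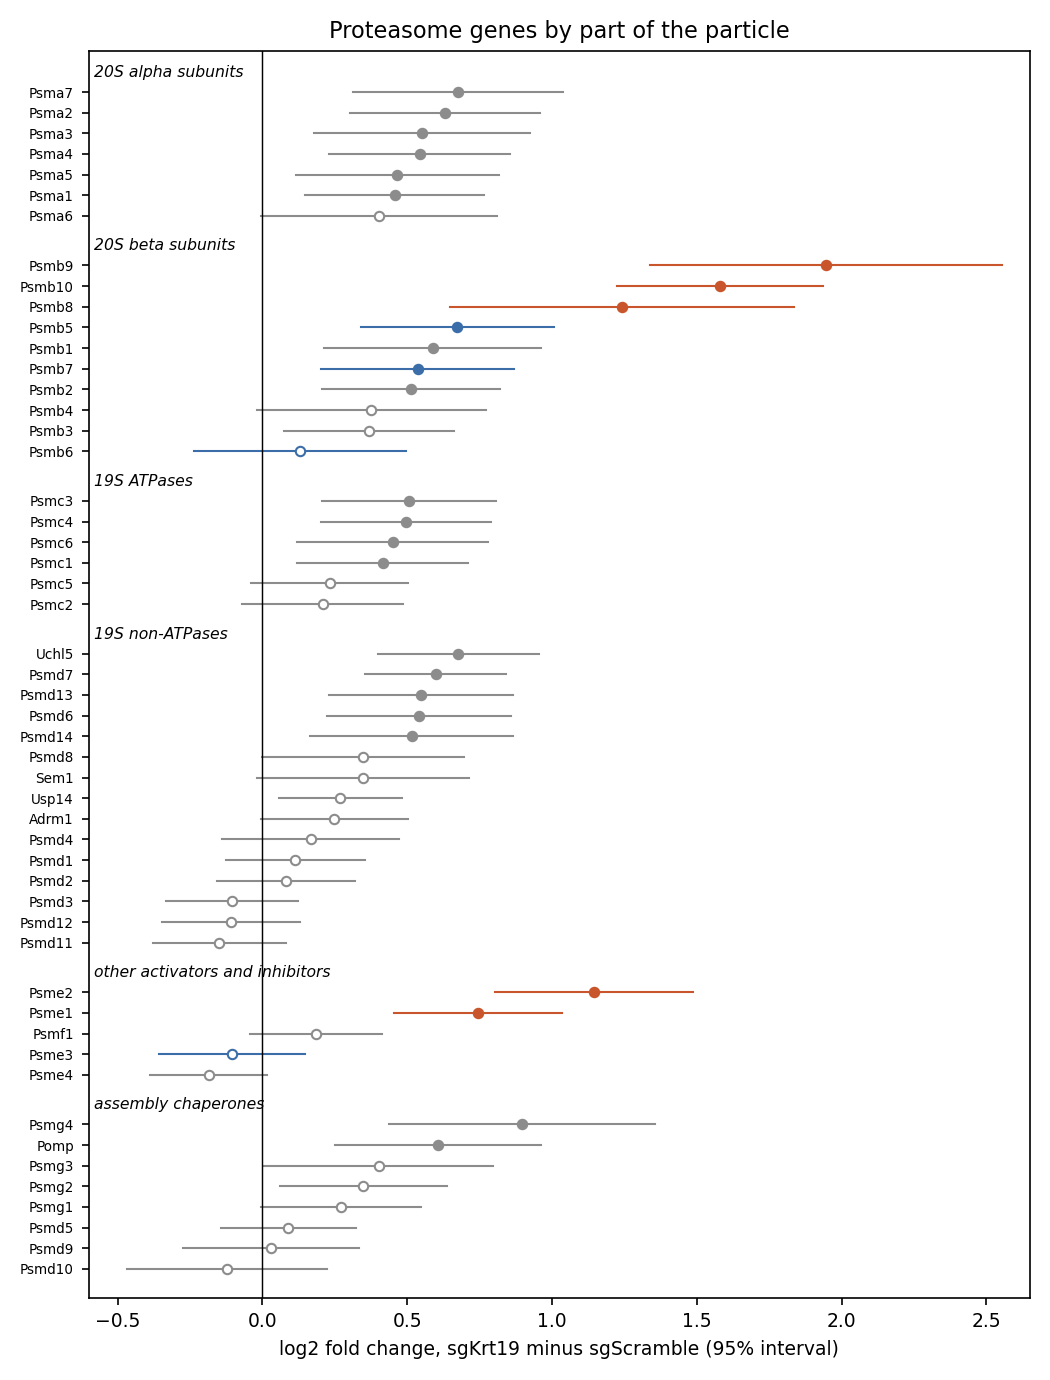
Log2 fold change, sgKrt19 minus sgScramble, with its 95% confidence interval from limma (x axis) for the 51 proteasome genes tested (y axis, by part of the particle). Orange marks the inducible and blue the constitutive members, and filled points passed the adjusted threshold of 0.05. The 3 inducible beta subunits lie at 1.24 to 1.95, to the right of every other proteasome gene.

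The smaller rise of the constitutive particle varied with scaling and with the libraries included. When libraries were scaled by their totals alone, the median of all genes became −0.21, and the 46 proteasome genes other than the inducible members had a median of 0.17. Under that scaling 12 proteasome genes were higher and 4 lower, Psmb5 was the only constitutive member called, Psmb7 had a log2 fold change of 0.32 (adjusted p = 0.0767), Psmb6 one of −0.09, and all 5 inducible genes remained higher. Without sgKrt19 5, 11 proteasome genes were higher, and without sgScramble 2, 14 were. Across all coding genes tested, those with transcripts under 1.5 kb had a median of 0.32 and 32.4% were higher, those of 1.5 to 3 kb had 0.07 and 21.6%, and those of 3 kb and over had −0.14 and 12.3%. In the same bins, 10 of 21, 11 of 20 and 0 of 5 proteasome genes other than the inducible members were higher. Psmb5, Psmb6 and Psmb7 have transcripts of 0.899, 0.798 and 1.16 kb. Psmb9, Psmb10, Psme1 and Psme2 are also under 1.5 kb, at 1.352, 1.311, 1.112 and 0.962 kb. Psmb8 and Psme3 are longer, at 1.628 and 2.664 kb, so the members of some ratios fall in different bins. The part of length in the changes of the members and in their ratios was not tested.

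The interferon-gamma pathway was described from a list of 11 ligands, receptors, kinases and regulators, of which 7 were higher and 0 lower. Over all genes tested, these shares were 17.9% and 16.0%. Ifng, the ligand, was at 22.8 to 40.9 in sgScramble and at 147 to 200 in sgKrt19, a log2 fold change of 2.57 (adjusted p = 9.7e-05). Irf1, a factor that acts on immunoproteasome promoters, rose by 0.91 (adjusted p = 0.00236). The receptor kinases Jak1 and Jak2 had log2 fold changes of −0.06 and −0.02 (adjusted p = 0.666 and 0.876). Nlrc5, the MHC class I transactivator, had 1.06 (adjusted p = 0.0461) with overlapping groups, and lost the call without sgKrt19 6 (adjusted p = 0.102), sgKrt19 8 (0.154) or sgScramble 1 (0.0748), in DESeq2 (0.0873), with library totals as the only scaling (0.104) and with a minimum mean value of 100 (0.0501). Among the controls, sgScramble 3 was lowest for Irf1 and Nlrc5 (3260 and 719), as it was for Psmb8 and Psmb9.

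Of the factors known to drive constitutive proteasome genes, Nfe2l1 was at 6468, 7289, 6586 and 7329 in sgScramble and at 6128, 6553 and 5029 in sgKrt19 (log2 fold change −0.24, adjusted p = 0.152). Scaled by library totals alone it was called lower, at −0.45 (adjusted p = 0.0201). Nfe2l2, the oxidative stress factor, rose by 0.68 (adjusted p = 0.00194), with every sgKrt19 library above every control. Ddi2, the protease that activates the Nfe2l1 product, had −0.12 (adjusted p = 0.574).

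The partners of the immunoproteasome in peptide loading moved with it. Of 9 such genes, 7 were higher and 0 lower, against 17.9% and 16.0% of all genes tested, with a median of 0.87. Tap1 and Tap2, the transporter genes beside Psmb9 and Psmb8, had log2 fold changes of 1.88 and 1.22 (adjusted p = 0.000312 and 0.000164). Psmb9 and Psmb8 had 1.95 and 1.24. B2m, the light chain of MHC class I, rose by 1.36 (adjusted p = 0.00289), and Canx, a general chaperone of the endoplasmic reticulum, had −0.20 (adjusted p = 0.208).

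Genes with the most similar profile were ranked by the root mean square distance between log2 values, each centred on its own mean over the 7 libraries, among 15228 genes with a mean value of at least 100. For Psmb8 these were Gm20496, which overlaps it, Apol9b and Apol9a, at distances of 0.0909 to 0.134. For Psmb9 they were Cxcl11, Tap1 and H2-Q6 (0.167 to 0.18), and for Psmb10 Ifi27l2b, Gstt1 and H2-T23 (0.0709 to 0.146). Those of Psme1 were Gm49205, Gm38056 and Akr1b3, and those of Psme2 were Sap30, Dhrs3 and Txn1. Psmb5 was nearest to Mrps14, Gm13094 and Etfb, Psmb6 to Nme2, Gm20900 and Fopnl, and Psmb7 to Bola3, A430005L14Rik and the cap subunit Psmd6, all within 0.0405. Psme3 was nearest to Gart, Gatc and Nolc1 (0.0329 to 0.0412).

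To set the promoters of the inducible genes beside those of the constitutive ones, the 250 bases before the RefSeq gene start (GRCm38.p6, the same assembly as mm10) were searched on both strands for 4 motifs. These were GAAANNGAA, the interferon-stimulated response element, found in 7.13% of all 32851 promoter windows, TTCNNNGAA, the STAT site, in 7.02%, TGACNNNGC, the antioxidant response element, in 10.2%, and CCAAT in 33.8%. Each member holds at most 1 match, so none overlaps another. Of the 9 members, 8 have a window in the RefSeq table, and Psmb7 is not among them. The matches in the beta subunits are shown with up to 10 flanking bases, because 2 are in inducible genes (Psmb8 and Psmb9) and 2 in constitutive ones (Psmb5 and Psmb6). Capitals mark the match, and each stretch reads 5′ to 3′ on the strand of the gene.
Psmb8, STAT site, chr17:34198088-34198116, plus strand: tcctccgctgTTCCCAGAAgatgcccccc
Psmb9, CCAAT box read on the opposite strand, chr17:34187331-34187348, minus strand: gcagccgctgATTGGaaa
Psmb5, antioxidant response element, chr14:54618024-54618052, minus strand: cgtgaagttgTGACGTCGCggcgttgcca
Psmb6, antioxidant response element, chr11:70525338-70525356, plus strand: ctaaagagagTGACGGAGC

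Counting the base before the start as −1, the Psmb8 match lies at −97 to −89. All 250 bases of the windows of Psmb8 and Psmb9 lie within exons of the GENCODE annotation, counted over all genes on both strands. Which genes these exons belong to was not separated. Both windows lie inside the annotated gene itself. The Psmb8 window, 34197945 to 34198194, comes after the annotated start at 34197721. The Psmb9 window, 34187331 to 34187580, comes after the start of that minus-strand gene at 34187764. The Psmb8 and Psmb9 matches are therefore not upstream of the annotated gene starts. The Psmb5 match lies at −47 to −39 and the Psmb6 match at −9 to −1. The position in Psmb6 is uncertain, because the bases after its RefSeq start were not found in a GENCODE transcript of the gene, whose annotated start is at 70525367. Psme3 also holds a CCAAT box, at −14 to −10. Psmb10, Psme1 and Psme2 hold none of the 4 sets of letters in these windows. Their windows are partly exonic too, with 139 bases for Psme1, 52 for Psmb10 and 12 and 92 for the 2 starts of Psme2. The Psmb5 window has 27 such bases. The Psme1 window begins at 55578244, after the annotated gene start at 55578123, so it does not cover the bases before that start. The Psmb9 window overlaps that of Tap1, which is read on the opposite strand, so both hold the same CCAAT box. A match is a description of the sequence and not a site of binding.

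Markers of other cells moved with the groups too. The counts of markers called stand beside 17.9% higher and 16.0% lower among all genes tested. The summed value of 10 leukocyte markers was 11635 to 15915 in sgScramble and 21240 to 28827 in sgKrt19, and 10 of 10 were higher. That of 9 T cell markers was 648 to 1260 and 3559 to 6538, and 8 of 9 were higher. The 6 dendritic cell markers summed to 1161 to 1566 and 1638 to 2212 (3 of 6 higher) and the 5 endothelial ones to 2592 to 3704 and 4269 to 4779 (3 of 5 higher), whereas the sums of 10 macrophage and monocyte markers (5 of 10 higher, 1 lower) and 7 fibroblast markers (0 of 7 called) overlapped. The 8 epithelial markers, which include Krt8, Krt18 and Cdh1, summed to 126940 to 175180 and 262730 to 267580 (4 of 8 higher). Krt8 and Krt18 made up most of this sum, while Krt7, Cldn4 and Epcam had log2 fold changes of −1.03, −1.23 and 0.06 (adjusted p = 0.115, 0.149 and 0.943). Epithelial markers were thus present in every library. Skeletal muscle markers summed to 270 to 2787 in sgScramble and 21952 to 31152 in sgKrt19 (10 of 10 higher), with Ckm, Actn2, Myh4 and Mybpc1 at 0 in at least 1 library.

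The order of the libraries by these sums was compared with their order by the members, as a description. Within sgKrt19, library 8 had the lowest leukocyte sum (21240) and the lowest T cell sum (3559) but the highest Psmb8, Psmb9 and Psmb10 (4084, 4023 and 8818). Ifng ranked the edited libraries as Psmb8, Psmb9 and Psmb10 did, at 200, 187 and 147 in libraries 8, 5 and 6. Irf1 and Nlrc5 were also highest in library 8 (9261 and 4260), but both ranked library 6 above 5. Psme1 and Psme2 instead ranked library 5 above 8 above 6, as the muscle sum (31152, 30711 and 21952) and the endothelial sum (4779, 4661 and 4269) did. Libraries 5 and 8 were nearly equal for Psme1 (7318 and 7304) and for the muscle sum, so this order is weak. Within sgScramble, library 3 had the lowest T cell sum (648), the most muscle signal (2787) and the highest epithelial sum (175180). It also had the lowest Psmb8, Psmb9 and Psmb10 (890, 580 and 2243). The T cell sums of the controls (1260, 1179, 770 and 648 in libraries 1, 2, 4 and 3) had the same order as Psmb8 and Psmb9. Ifng was also lowest in library 3 but had another order, at 40.9, 29.7, 24.7 and 22.8 in libraries 1, 4, 2 and 3. The part of these other cells, or of Ifng, in the changes of the members was not tested.

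**Figure D5:**
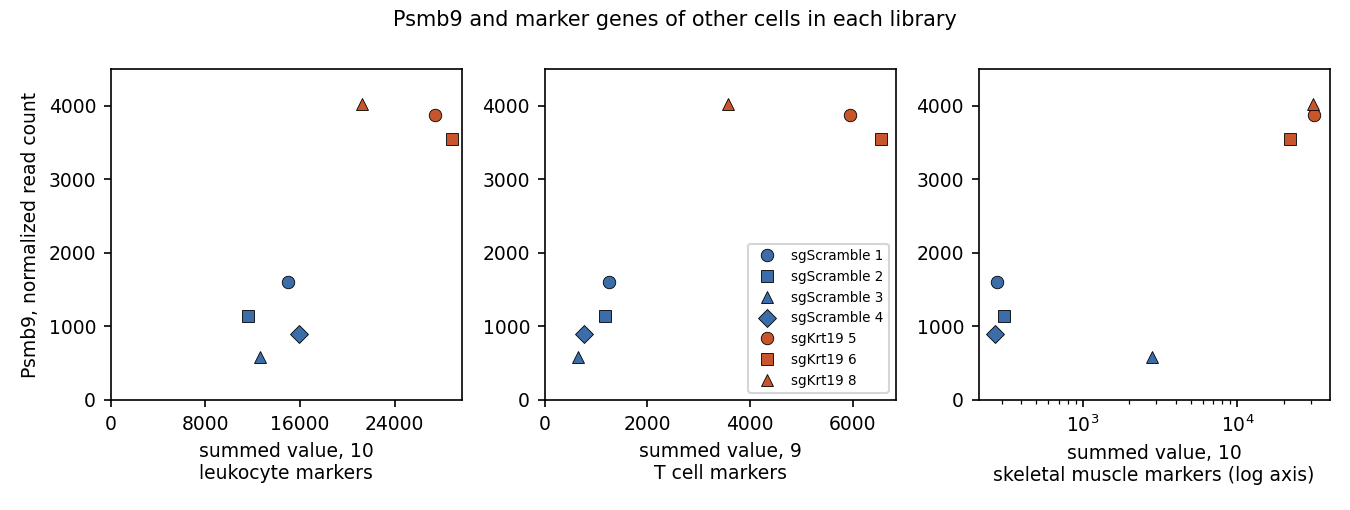
Psmb9 (y axis, normalized read count) against the summed value of leukocyte, T cell and skeletal muscle markers (x axes, the last on a log scale) in the 7 libraries, with sgScramble in blue and sgKrt19 in orange. The groups are apart on every axis, and sgKrt19 8 combines the highest Psmb9 (4023) with the lowest leukocyte and T cell sums of its group.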

How the data were processed

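The authors made the deposited signal values by counting reads per gene and dividing them by library size factors (38026 genes, 7 libraries). Whole reads were recovered for every value within a tolerance of 0.0002. The labels name poly(A) RNA, the methods a stranded total RNA kit. The build is mm10 per the submitters' notes, and the aligner and annotation are not given in the sources used here. Of the identifiers, 37095 (97.55%) are in GENCODE M21, which gave positions and lengths. RefSeq gave promoter sequences.

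limma 3.58.1 was fitted to log2(value + 1) with the group as the only term (lmFit, eBayes with trend), at an adjusted p of 0.05. edgeR 4.0.16 and DESeq2 1.42.0 on the recovered reads, other filters, pseudocounts of 0.5 and 10, other scalings and fits without each library were alternatives. The fits were tested on simulated data. The rule named all members, Krt19, the 3 largest called changes of the proteasome list each way, chosen pathway genes (1 of which is not reported here) and the 3 nearest genes per member. Jak1, Jak2, Ddi2, B2m, Canx, Krt7, Cldn4, Epcam and Psme4 were named after their values were seen. Members and lists were chosen with earlier results of these data known.

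Chi-square per degree of freedom between libraries of a group was 18.8 to 81.0, so none was a repeat of another. The limit of 3 reads covers counting error only, and the 95% intervals come from the spread between tumors in the limma fit.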

Additional observations from a re-analysis of the deposited data

Results flagged for a closer look

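In 7 of 45 quantities examined, 1 of the 4 sgScramble libraries stood apart by Dixon's criterion, which chance meets in about 1 of 20 groups. The quantities share the same 4 libraries and some of the same genes, so their count cannot be set against that rate. sgScramble 3 was lowest, at −1.995 for the log2 ratio of Psmb8 to Psmb5, −2.54 for Psmb8 and −1.21 for Psmb10 relative to the shared 20S core and 820 for Tap2, and highest, at 2787, for the summed skeletal muscle markers. Psmb10 in sgScramble 1 was high at 3302, against 2243 to 2373 in the other controls. The dendritic cell sum in sgScramble 4 was high at 1566.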

How the results depend on the processing

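All 5 inducible genes were called higher under every alternative run, with ranges on leaving out 1 library of 0.98 to 1.45 for Psmb8, 1.69 to 2.18 for Psmb9, 1.46 to 1.71 for Psmb10, 0.69 to 0.85 for Psme1 and 1.06 to 1.28 for Psme2. Psme3 ranged from −0.19 to 0.0086 (positive without sgKrt19 5), Psmb6 from −0.027 (without sgKrt19 5) to 0.22 and Psmb7 from 0.46 to 0.64, with constitutive calls at 1 to 2. Scaling by library totals alone gave −0.085 for Psmb6, 0.32 for Psmb7, 1 constitutive call, 16 proteasome calls (12 higher, 4 lower), and 2177 genes higher with 5727 lower, so that 27.5% of calls were higher against 52.8%. Leaving out 1 library gave 11 to 30 proteasome calls, all higher, 2481 to 4103 genes higher and 2232 to 3611 lower. With p from the size of the difference, the ratios Psmb9/Psmb6 (1.82), Psmb10/Psmb7 (1.04), Psme1/Psme3 (0.85), Psme2/Psme3 (1.25), Psmb9/Psmb8 (0.71) and Psme2/Psme1 (0.40) passed the threshold. Each did so at the smallest p that this count can give. No ratio to the shared 20S core passed it by that p. The cause of these shifts was not tested. The legend of the study's heat map calls the control and edited cells paired. The groups share no replicate number, so pairs could not be identified from the labels and no paired analysis was run.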
